A study of Mus musculus with 6 samples.

Results

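The 10 genes described here belong to the YAP/TAZ pathway: the coactivator genes Yap1 and Wwtr1 (the gene of TAZ), their DNA-binding partner Tead1, the inhibitors Lats2, Amotl1 and Amotl2, and the target genes Ccn1, Ccn2, Ankrd1 and Axl. They were chosen by name, as the rows whose symbol is one of these 10, with earlier results of these data known. They gave 11 of the 23197 rows of the count table, since the symbol Lats2 stands on 2 rows. RNA was sequenced from mouse primary vascular smooth muscle cells of a commercial supplier, 24 h after transfection. The groups were 3 libraries of cells given a negative control (controls 1 to 3) and 3 of cells given siRNA against Arid3a, a DNA-binding protein gene (siArid3a 1 to 3). Whether the numbers #1 to #3 of the siArid3a labels mean separate siRNAs or repeats is not given. The labels name no strain, animal or separate culture, so p-values measure the spread between these libraries, which may be technical. A treatment with angiotensin II stands in the labels too, not tied to these 6 libraries.

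YAP1 and TAZ are coactivators without a DNA-binding domain of their own. LATS kinases of the Hippo pathway phosphorylate them, which keeps them in the cytoplasm, and angiomotins bind and retain them. In the nucleus they join TEAD proteins and switch on genes such as Ccn1, Ccn2 and Ankrd1. In cultured smooth muscle cells the pathway is known for its response to stiffness, stretch and spreading.

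Total counts ranged from 17029735 to 22799935 per library. Arid3a itself differed little between the groups: its counts were 375, 370 and 391 in controls 1 to 3 and 380, 367 and 376 in siArid3a 1 to 3. Its fold change on the log2 scale was −0.03 (SE 0.13, edgeR adjusted p = 0.943), which goes against the labels, so every direction given here is that of the libraries labelled siArid3a. Of the smooth muscle markers, Acta2 (smooth muscle actin) had 540.7 ± 53.7 CPM and Cnn1 (calponin) 30.2 ± 2.72 CPM in the controls (SD, n = 3). CPM stands for reads per megaread, with library totals scaled by TMM. The defining marker Myh11 (smooth muscle myosin) was nearly absent, with 30 reads over the 6 libraries. Tagln had 158 reads, but only 32.1% of its exonic bases are free of other genes. Its low count is therefore not read here as low expression.

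The short sequence GGAATG, read on either strand, is the core of the site that TEAD proteins bind. RefSeq promoter windows on GRCm38.p6, from 250 bases before to 50 bases after a start site, were found for 8 of the 10 genes, not for Ccn2 and Tead1. GGAATG or its reverse complement was in 8 of their 10 windows, against 14.7% of all 32851 windows. By gene, 7 of the 8 held it in at least 1 window, against 4481 of all 27025 genes. Both windows of Wwtr1 hold the same match. As the genes were chosen as pathway and target genes, these counts are a description and not a test. Ankrd1 held 2 matches, and Yap1 and Wwtr1, which are coactivator and not target genes, held 1 each. The window of Amotl1 held none, and the Lats2 match lay 5 bases after the start. The 30 bases around each match before a start are shown on the strand of the gene, 5′ to 3′, because they carry the sequence feature that targets and coactivators share. Capitals mark the match, written CATTCC where GGAATG is on the opposite strand.
Ccn1, chr3:145650071-145650100, minus strand: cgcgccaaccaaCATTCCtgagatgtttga
Ankrd1, chr19:36120037-36120066, minus strand: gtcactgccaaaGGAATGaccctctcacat
Ankrd1, chr19:36119950-36119979, minus strand: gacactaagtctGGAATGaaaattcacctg
Amotl2, chr9:102717727-102717756, plus strand: ctgaaactctcaCATTCCtggcatagcagc
Axl, chr7:25788949-25788978, minus strand: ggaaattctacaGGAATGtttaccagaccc
Yap1, chr9:8004720-8004749, minus strand: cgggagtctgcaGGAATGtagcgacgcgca
Wwtr1, chr3:57576029-57576058, minus strand: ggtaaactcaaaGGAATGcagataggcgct

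Counted in bases from the RefSeq start site, the match began at −103 in Ccn1, −65 in Amotl2, −210 and −123 in Ankrd1 and −233 in Axl. It began at −141 in Yap1 and at −136 in Wwtr1, whose match stands at −170 from a second start. The matches of Ankrd1 and Amotl2 lie inside the gene spans of the count table, which end at 36120099 and begin at 102716672. For these genes the RefSeq start used thus differs from the start of the span. The whole stretch before the Ccn1 start is shown as the example of a target promoter.
Ccn1, chr3:145649986-145650235, minus strand: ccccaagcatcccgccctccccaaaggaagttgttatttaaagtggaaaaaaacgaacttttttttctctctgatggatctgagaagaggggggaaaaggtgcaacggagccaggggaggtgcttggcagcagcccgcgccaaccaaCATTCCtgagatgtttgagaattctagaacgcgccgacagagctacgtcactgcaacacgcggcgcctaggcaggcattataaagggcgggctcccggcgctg
The CArG box, the site of serum response factor, was in no window of these genes and in 1.63% of all windows. A match describes the letters of the window and not binding.

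Both coactivator genes were transcribed at closely similar levels in the control and siArid3a-labelled libraries. Yap1 (chromosome 9, 7931999 to 8004596, minus strand) had 170.2, 172.8 and 176.6 CPM in controls 1 to 3 and 164.8, 171.3 and 162.3 CPM in siArid3a 1 to 3. Its ranges overlapped only through control 1 and siArid3a 2, the other siArid3a values lying lower. Yap1 thus had a log2 fold change of −0.06 (SE 0.07), or 0.86 to 1.07 times the control level as a 95% interval (edgeR adjusted p = 0.74). Wwtr1 (chromosome 3, 57455649 to 57575910, minus strand) had 103.7, 103.9 and 109.2 CPM in the controls and 107.0, 104.4 and 117.2 CPM in siArid3a 1 to 3. The groups overlapped, with siArid3a 3 the highest library. For Wwtr1 it was 0.05 (SE 0.08), or 0.93 to 1.16 times control (edgeR adjusted p = 0.792), and 0.0047 without siArid3a 3.

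The Yap1 to Wwtr1 count ratio within a library, which needs no scaling between libraries, was 1.64, 1.66 and 1.62 in the controls and 1.54, 1.64 and 1.38 in siArid3a 1 to 3. Control values lay close together while siArid3a 3 lay lowest. The log2 ratio differed by −0.11 (exact permutation test, two-sided, p = 0.2, adjusted over 3 ratios 0.3), where 3 against 3 libraries cannot give a p below 0.1.

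Tead1, which encodes a DNA-binding partner of both coactivators, had higher values in every siArid3a-labelled library than in any control, a difference that did not pass over all genes. Tead1 (chromosome 7, 112679318 to 112906807, plus strand) had 161.4, 152.5 and 155.7 CPM in the controls and 187.2, 172.8 and 180.6 CPM in siArid3a 1 to 3. The lowest siArid3a value stood above the highest control by more than the control range. On the log2 scale the difference was 0.20 (SE 0.07), or 1.15 times control with a 95% interval of 1.03 to 1.28 (edgeR adjusted p = 0.212). With any 1 library left out it was 0.18 to 0.23.

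Lats2, the kinase gene that is both inhibitor and target of the pathway, could not be measured in this table. Its own row (ENSMUSG00000021959, chromosome 14, 57689662 to 57758388, minus strand) had 8, 5 and 10 reads in the controls and 1, 6 and 4 in siArid3a 1 to 3. The other row named Lats2 (ENSMUSG00000114942, 57642077 to 57746103) is Gm49361 in GENCODE M21, a gene on the same strand that shares the Lats2 span, and had 70 reads over the 6 libraries. Of the exonic bases of Lats2, 3% lie outside the spans of other genes, and of those of Gm49361, 0%. Of 1740 annotated protein-coding genes with under 5% outside, 306 were in the count table and 134 were tested (7.7%). With at least 90% outside, 13122 of 16852 were in the count table and 9471 were tested (56.2%). Both percentages count genes that the count table lacks, while Lats2 is in it. The low counts are not read here as Lats2 expression, and the part of the shared span in them was not tested. Gm49361 was tested, with a log2 fold change of 0.17 (SE 0.49, edgeR adjusted p = 0.905) that is not read as Lats2.

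The paralog kinase gene Lats1, in a row of its own, averaged 101.9 ± 5.39 CPM in controls and 113.0 ± 0.999 CPM in siArid3a-labelled libraries (SD, n = 3). Its groups did not overlap, and its difference of 0.15 on the log2 scale (SE 0.08) did not pass (edgeR adjusted p = 0.366). Lats1 was picked out after its value was seen.

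Of the angiomotin genes, Amotl1 showed no shift and Amotl2, itself a YAP target, had higher values that overlapped the controls. Amotl1 (chromosome 9, 14541966 to 14645056, minus strand) had 202.8, 190.9 and 224.9 CPM in the controls and 198.5, 220.8 and 203.3 CPM in siArid3a 1 to 3. All 3 siArid3a values lay inside the control range. Amotl1 had a log2 fold change of 0.01 (SE 0.08), or 0.89 to 1.14 times control (edgeR adjusted p = 0.972), and its sign turned under 5 of 18 alternatives. Amotl2 (chromosome 9, 102716672 to 102733418, plus strand) had 385.3, 332.4 and 430.4 CPM in the controls and 414.6, 439.6 and 410.8 CPM in siArid3a 1 to 3. Controls 1 and 2 lay below every siArid3a library and control 3 did not. Its log2 fold change was 0.14 (SE 0.09), or 0.96 to 1.26 times control (edgeR adjusted p = 0.498), and 0.05 without control 2.

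Amotl1 to Amotl2 count ratios were 0.526, 0.574 and 0.522 in the controls and 0.479, 0.502 and 0.495 in siArid3a 1 to 3. Every siArid3a library lay below every control. The difference of −0.14 on the log2 scale gave p = 0.1, the smallest an exact permutation test of 3 against 3 allows, or 0.3 adjusted over 3 ratios.

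**Figure D1:**
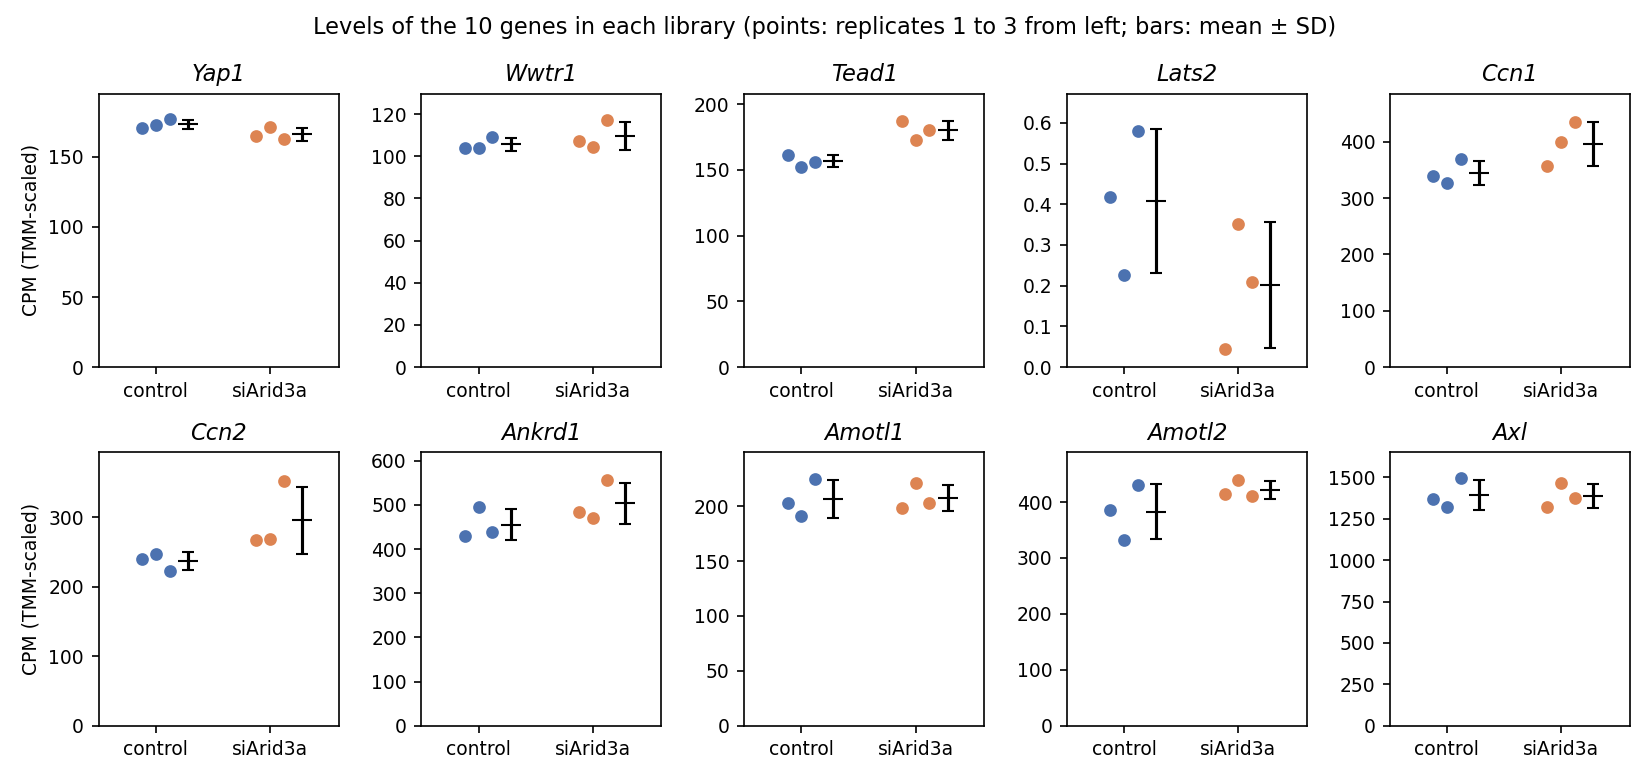
Level of each of the 10 genes in CPM (TMM-scaled, axes from 0) in the 3 control libraries (blue) and the 3 libraries labelled siArid3a (orange), with mean ± SD in black. The groups did not overlap for Tead1 and Ccn2, and Lats2 stayed below 0.6 CPM in every library.

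The secreted matricellular protein genes Ccn1 and Ccn2 had the largest positive fold changes among the 4 target genes Ccn1, Ccn2, Ankrd1 and Axl. Ccn2 (connective tissue growth factor, chromosome 10, 24595442 to 24598683, plus strand) had 239.7, 247.3 and 222.3 CPM in the controls and 267.6, 268.3 and 351.4 CPM in siArid3a 1 to 3. All siArid3a values lay above all controls, with siArid3a 3 far above siArid3a 1 and 2. Ccn2 differed by 0.32 on the log2 scale (SE 0.10), or 1.25 times control with a 95% interval of 1.08 to 1.45, which did not pass (edgeR adjusted p = 0.172). The difference was 0.18 without siArid3a 3 (edgeR adjusted p = 0.602). The antisense gene Gm15270 overlaps Ccn2 and leaves 55% of its exonic bases unshared, and Gm15270 itself had 34 reads over the 6 libraries.

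Ccn1 (chromosome 3, 145646976 to 145649981, minus strand) had 338.9, 327.0 and 368.8 CPM in the controls and 356.5, 398.7 and 434.6 CPM in siArid3a 1 to 3. The groups overlapped through control 3 and siArid3a 1. Its log2 fold change was 0.20 (SE 0.09), or 1.01 to 1.31 times control (edgeR adjusted p = 0.297), and 0.13 without siArid3a 3. The Ccn1 to Ccn2 count ratio was 1.41, 1.32 and 1.66 in the controls and 1.33, 1.49 and 1.24 in siArid3a 1 to 3, a log2 difference of −0.11 (exact permutation test, two-sided, p = 0.5, also 0.5 adjusted over 3 ratios). The ratio ranges overlapped.

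Ankrd1 encodes a nuclear ankyrin-repeat protein of muscle cells. Ankrd1 (chromosome 19, 36111961 to 36120099, minus strand) had 430.1, 495.5 and 439.3 CPM in the controls and 483.9, 470.0 and 556.6 CPM in siArid3a 1 to 3. Control 2 lay above siArid3a 1 and 2, so the groups overlapped. Its log2 difference of 0.15 (SE 0.09, edgeR adjusted p = 0.46) was 0.07 without siArid3a 3.

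Axl, a receptor tyrosine kinase gene whose ligand is Gas6, had the highest CPM of the 10 and did not shift. Axl (chromosome 7, 25757273 to 25788705, minus strand) had 1367, 1319 and 1494 CPM in the controls and 1324, 1468 and 1376 CPM in siArid3a 1 to 3. The siArid3a values lay inside the control range. The log2 fold change of Axl rounded to 0.00 (SE 0.09) with a 95% interval of 0.88 to 1.13 times control (edgeR adjusted p = 0.987), and its sign turned under 7 of 18 alternatives.

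**Figure D2:**
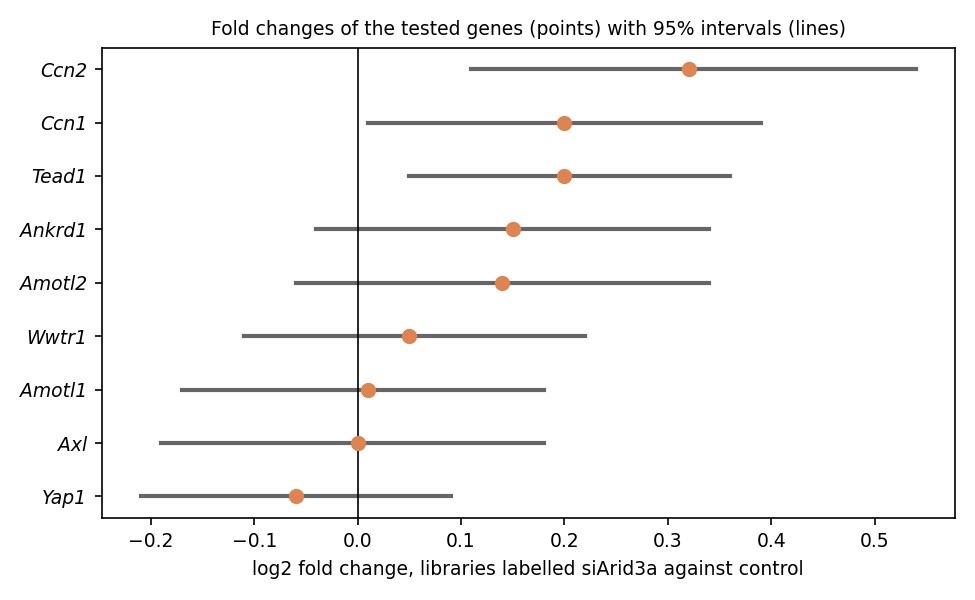
Log2 fold change of the libraries labelled siArid3a against control for the 9 genes tested in their own row (points), with 95% intervals from edgeR (lines). The intervals of Ccn2, Tead1 and Ccn1 lie above 0, from 0.11, 0.05 and 0.01 upward, before adjustment over all genes.

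Over all genes, edgeR called 0 of 13234 at an adjusted p under 0.05 (0%), and 0 of the 10 tested rows. Without adjustment, the quasi-likelihood test passed 0.05 for 3 of the 9 genes tested in their own row, Ccn2, Tead1 and Ccn1, all with higher values in the siArid3a-labelled libraries. Among all genes tested this was so for 14.9% in either direction and 7.36% with higher values. Groups did not overlap in 2 of the 9, both higher, against 20.0% of all genes in either direction, 9.66% higher and 10.4% lower. DESeq2 called 1.95% of the genes to which it gave an adjusted p and 0 of the 9, its smallest being 0.0808 for Ccn2. The median log2 fold change of the 9 was 0.14, against −0.01 over all genes. As the genes were chosen with earlier results of these data known, these counts and medians are a description and not a test. By library, the median log2 deviation of the 9 from the control mean was −0.02, −0.04 and 0.05 in the controls and 0.05, 0.10 and 0.15 in siArid3a 1 to 3. The lowest siArid3a library thus equalled the highest control to 2 decimals.

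When low counts were left unfiltered, edgeR called Ccn2 at the same fold change (adjusted p = 0.0158), among 439 calls in 23197 genes. With each library's trend of GC content and length removed it called Ccn2 at a log2 fold change of 0.36 (adjusted p = 0.0412), among 417 calls in 13234 genes.

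Levels of different genes were compared per exonic length, as CPM per exonic kb in the controls (mean ± SD, n = 3). Axl stood highest at 276.8 ± 17.9, followed by Ccn1 at 170.8 ± 10.7 and Ankrd1 at 157.7 ± 12.3. These 3 target genes lay above at least 98.1% of all genes tested. Ccn2 had 82.6 ± 4.48 and Amotl2 had 60.9 ± 7.79. All Ccn2 reads divided by only the exonic bases that no other gene covers gave 150.1. That value is too high if reads in the shared bases were counted. The coactivators and their partner were lower, with Wwtr1 at 22.1 ± 0.66, Yap1 at 18.7 ± 0.347 and Tead1 at 11.5 ± 0.332, and Amotl1 at 20.5 ± 1.71 lay among them. Library ranges overlapped between Ccn1 and Ankrd1, between Wwtr1 and Amotl1 and between Amotl1 and Yap1, so these neighbours in the order are not separated. The deposited lengths are whole gene spans, so intronic reads may be in the counts. Per kb of span Yap1 had 2.39 CPM, Wwtr1 0.878 and Tead1 0.688, and Amotl1 had 2 CPM, so that Yap1 and Amotl1 stood above Wwtr1. Axl, at 44.3 CPM per kb of span, then stood behind Ccn1 at 114.7, Ccn2 at 72.9 and Ankrd1 at 55.9. The order of levels thus turns with the length used.

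Within each family 1 paralog made up a large share of the level per exonic length. Amotl2 held 71.0 ± 1.05% of the 3 angiomotin genes in the controls and 72 ± 0.579% in the siArid3a-labelled libraries (SD, n = 3), and Amot the least, with 5.03 ± 0.368% and 5.82 ± 0.287%. Tead1 held 39.2 ± 2.34% of the 4 TEAD genes in the controls, with Tead3 next at 23.0 ± 2.26%. Per kb of span the TEAD order turned, with Tead3 at 2.39 CPM and Tead2 at 1.56 CPM above Tead1 at 0.688 CPM. Axl made up 98.3 ± 0.115% of the TAM receptor genes Axl, Tyro3 and Mertk, and Ccn1 made up 52.4 ± 2.1% of the 6 CCN genes. With all its reads divided by only the exonic bases that no other gene covers, Ccn2 had 150.1 CPM per kb in the controls. Ccn1 had 170.8. The Ccn2 value is an upper bound, since reads in shared bases may have been counted. Wwtr1 held 54.1 ± 0.354% of the Yap1 and Wwtr1 sum, an order that also turned per kb of span. Shares within a family describe transcript reads and not protein.

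**Figure D3:**
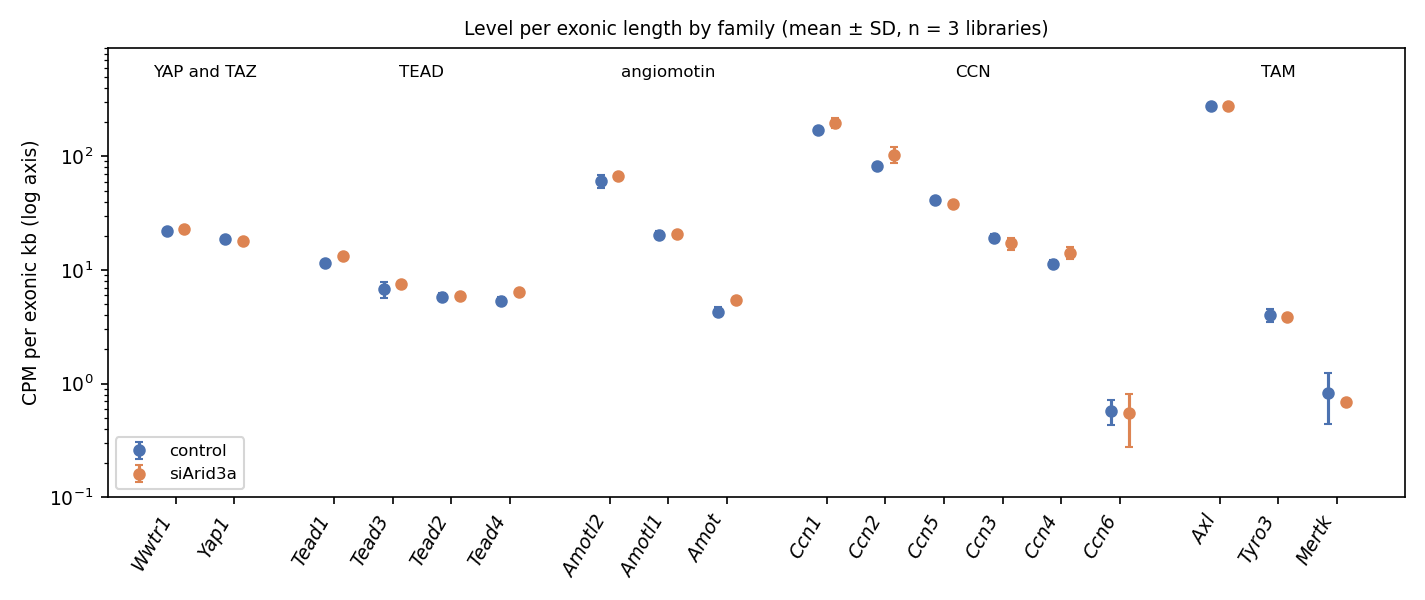
Mean level per exonic length (CPM per exonic kb, log axis, bars SD, n = 3) of the paralogs in 5 families, control in blue and siArid3a-labelled in orange. Axl stands far above Tyro3 and Mertk, and both groups show the same leading gene in each family.

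The other genes of the pathway came from 7 lists, described here by counts beside all genes tested, since edgeR called 0 in each. Of 18 Hippo kinases and scaffolds, 16 were tested: the log2 fold change was above 0 in 10 and below 0 in 6, and its median was 0.03. The groups did not overlap in 3 of the 16, against the 20.0% of all genes. Map4k4, a kinase that acts on LATS, averaged 496.1 ± 25.8 CPM in controls and 434.3 ± 23.0 CPM in siArid3a-labelled libraries (SD, n = 3), and its difference of −0.19 on the log2 scale (SE 0.08) did not pass (edgeR adjusted p = 0.279). Fat1, an atypical cadherin gene, had 353.8 ± 30.2 and 354.3 ± 39.7 CPM. Mob1b, a LATS cofactor gene picked out after its value was seen, had 67.2 ± 6.11 and 87.3 ± 10.9 CPM (log2 fold change 0.38, SE 0.10, edgeR adjusted p = 0.128), and DESeq2 called it (adjusted p = 0.0387).

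Among the 9 coactivator and DNA-binding partner genes 7 were tested, 6 of them above 0, with a median of 0.14, and groups did not overlap in 3 of the 7, all higher, against 9.66% of all genes. Vgll3, a TEAD-binding cofactor gene, averaged 126.1 ± 3.23 CPM in controls and 155.4 ± 12.1 CPM in siArid3a-labelled libraries (log2 fold change 0.30, SE 0.08, edgeR adjusted p = 0.122). DESeq2 called Vgll3 (adjusted p = 0.0341). Tead3 had 45.7 ± 7.29 and 50.2 ± 2.67 CPM, and Tead4, picked out after its value was seen, 19.3 ± 1.5 and 23.0 ± 0.872 CPM (SD, n = 3).

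Of the 15 proteins that bind or hold back YAP and TAZ, all tested, 9 lay above 0 and 6 below, with a median of 0.01. The phosphoserine-binding adaptor genes Ywhaz and Ywhae differed by 0.14 (SE 0.09) and 0.08 (SE 0.09) on the log2 scale. Amot, picked out after its value was seen, averaged 36.1 ± 3.23 CPM in controls and 45.5 ± 2.84 CPM in siArid3a-labelled libraries (log2 fold change 0.33, SE 0.10, edgeR adjusted p = 0.143).

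A list of 22 YAP and TAZ target genes, which includes 6 of the 10 genes described here, showed no common direction. Of 21 tested, 10 lay above 0 and 11 below, with a median of 0.00, and the groups did not overlap in 5, 3 higher and 2 lower, near the 20.0% of all genes. Myof (myoferlin) averaged 519.5 ± 12.1 CPM in controls and 460.0 ± 16.9 CPM in siArid3a-labelled libraries (log2 fold change −0.18, SE 0.08, edgeR adjusted p = 0.294). Igfbp3, a binding protein gene of insulin-like growth factors, had 362.4 ± 14.5 and 321.1 ± 41.6 CPM. Genes picked out after their values were seen stood on both sides: on the log2 scale the tissue factor gene F3 differed by 0.37 (SE 0.11), the stress gene Gadd45a by 0.41 (SE 0.09) and Ccdc80 by −0.38 (SE 0.12), with edgeR adjusted p of 0.167, 0.112 and 0.16. DESeq2 called Gadd45a alone of the list (adjusted p = 0.0151), whose exonic bases are free of other genes in 51.3% only.

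Of the 6 CCN genes, 3 lay above 0, Ccn1, Ccn2 and Ccn4, and 3 below, with a median of 0.06. Ccn4 had 63.5 ± 4.64 and 78.4 ± 9.49 CPM (log2 fold change 0.30, SE 0.10, edgeR adjusted p = 0.174). Ccn5, which lacks the C-terminal domain of the other family members, had 79.0 ± 3.25 and 73.3 ± 3.94 CPM (log2 fold change −0.11, SE 0.08). The 5 TAM receptors and ligands were below 0, Axl by less than 0.01, with a median of −0.11, Pros1 at −0.11 (SE 0.08) and Tyro3 at −0.05 (SE 0.11).

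**Figure D4:**
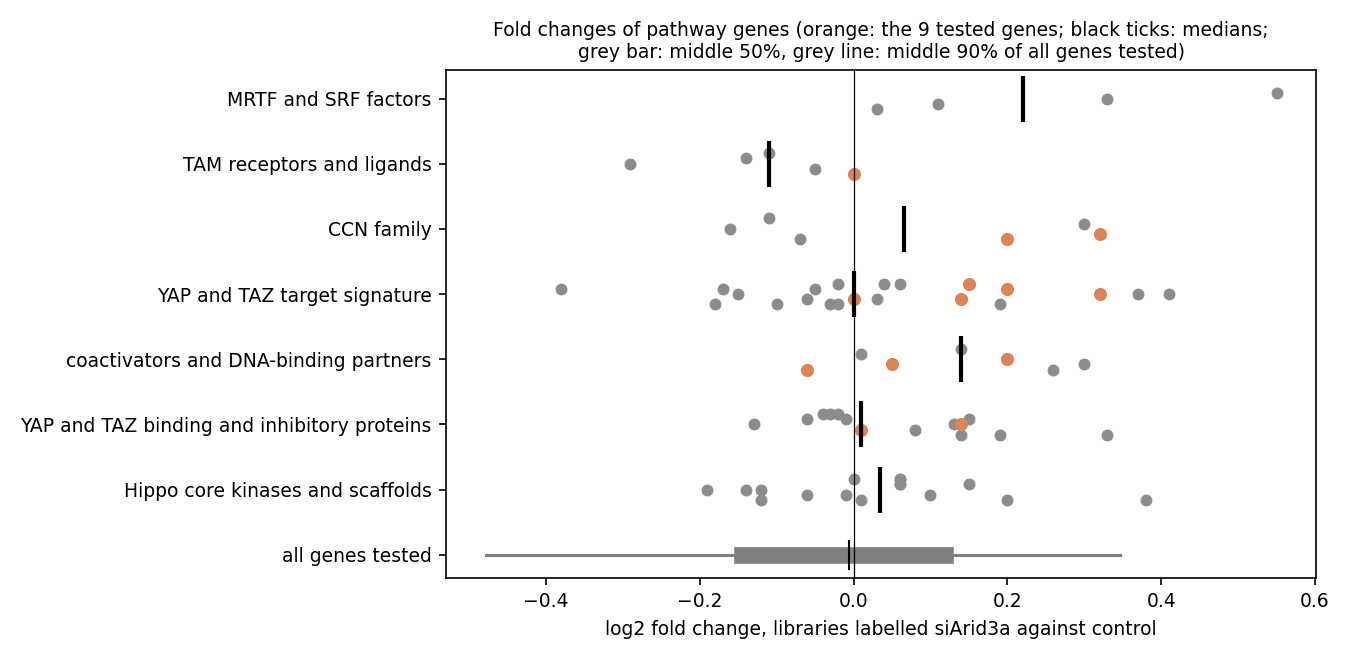
Log2 fold changes of the tested genes of the 7 pathway lists (points; orange marks the genes described here, black ticks the list medians), above the spread of all genes tested (grey). List medians run from −0.11 for the TAM genes to 0.22 for the 4 MRTF and SRF factors, of which Mrtfb and Myocd had low counts. The target genes lie on both sides of 0.

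Summed markers of fibroblasts, macrophages and epithelial or mesothelial cells were lower in every siArid3a-labelled library than in any control, and their part in these results was not tested. Sums of endothelial, pericyte and smooth muscle markers overlapped. Smooth muscle sums were 2124 to 2270 CPM in the controls and 2225 to 2681 CPM in the siArid3a-labelled libraries. Fibroblast markers summed to 601.0 to 766.5 CPM in the controls and 438.8 to 559.2 CPM in the siArid3a-labelled libraries, and of 7 tested, 2 lay above 0 and 5 below. Of the 9 in the list, Tcf21 was not in the table. Most of the sum was Dcn (decorin), at 518.8 ± 74.7 and 371.0 ± 55.2 CPM (SD, n = 3), which DESeq2 called lower (adjusted p = 0.0137) and edgeR did not (adjusted p = 0.114). Epithelial and mesothelial markers summed to 158.9 to 179.6 CPM against 130.9 to 149.7 CPM, led by Msln (mesothelin) at 117.8 ± 7.33 and 103.6 ± 7.23 CPM, while Epcam had 1 read in all. All 4 tested lay below 0, and DESeq2 called the keratin gene Krt19 (adjusted p = 0.0341), picked out after its value was seen. Macrophage markers summed to 62.3 to 73.9 CPM against 42.6 to 58.4 CPM, led by Cd14 at 54.5 ± 4.26 and 39.8 ± 6.43 CPM, with 20 reads for the leukocyte gene Ptprc and 5 for Adgre1 over the 6 libraries. All 5 tested lay below 0, and DESeq2 called Cd14 (adjusted p = 0.0289). Endothelial sums were 20.6 to 30.2 and 16.6 to 25 CPM, led by Vwf, with 22 reads for Cdh5. The endothelial receptor gene Kdr, picked out after its values were seen, went the other way at very low counts, with 3, 12 and 1 reads in the controls and 18, 10 and 26 in siArid3a 1 to 3 (log2 fold change 1.74, SE 0.61, edgeR adjusted p = 0.203). Pericyte sums were 184.2 to 238.5 and 156.1 to 205.6 CPM, led by Pdgfrb, and all 4 tested lay below 0. In bulk RNA fewer cells of a type and less RNA per cell cannot be told apart.

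**Figure D5:**
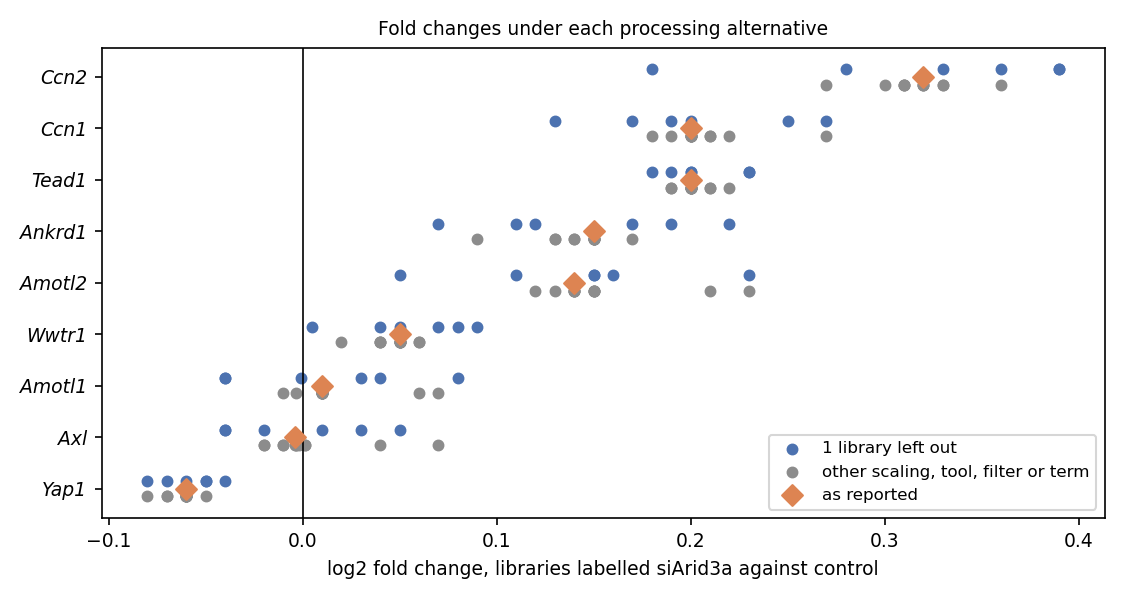
Log2 fold change of each of the 9 genes as reported (orange diamonds), with 1 library left out (blue) and under other scalings, tools, filters or model terms (grey). Tead1 keeps to 0.18 to 0.23, Ccn2 spreads from 0.18 to 0.39, and Axl and Amotl1 lie on both sides of 0.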

How the data were processed

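PolyA RNA of 6 libraries was captured, sequenced on an MGI instrument and, per the submitters' processing notes, processed with STAR 2.7.3a, featureCounts and the mm10 build. The authors deposited whole-number counts per gene with coordinates and lengths, and every length equals the whole gene span (23197 of 23197 rows). For the annotation, strand setting and filters, the entry is: not given in the sources used here.

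Exonic lengths, overlaps and GC content came from GENCODE M21 on GRCm38, the assembly of mm10. After filterByExpr and TMM scaling, edgeR 4.0.16 (R 4.3.3) gave quasi-likelihood tests (robust, group as the only term) with Benjamini-Hochberg adjustment over all 13234 genes. Each SE was computed as the size of the log2 fold change divided by the root of its F statistic. DESeq2 1.42.0 and limma-voom (limma 3.58.1) were alternatives. The fits were tested on simulated counts whose planted changes were all larger than those of the 9 genes tested in their own row. That test therefore does not cover changes of their size. Count ratios were compared by exact permutation. Replicate pairs differed by more than sampling noise (chi-square per degree of freedom 5.72 to 20.2).

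The 10 genes and the lists were chosen with earlier results of these data known. Genes named from each list were, as edgeR called none, the 2 with the highest mean CPM, and those of marker lists the highest, unless stated. The restriction to genes with at least 90% of exonic bases outside other genes, the length under no other gene and the repeats for Arid3a and the lists were added after seeing the data.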

Additional observations from a re-analysis of the deposited data

How the results depend on the processing

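Tead1, Ccn1, Ccn2, Ankrd1, Amotl2, Wwtr1 and Yap1 kept their sign under every alternative run. Over all genes, where edgeR called 0, DESeq2 called 223 (107 higher, 116 lower), no filter on low counts 439, a depth block 105 and removal of the GC and length trend 417 (273 higher, 144 lower), while leaving out 1 library gave 0 to 135 calls. That trend removal and the absence of a filter each called 1 of the 10 genes, Ccn2, and leaving out 1 library called 0. The median of the 9 genes, 0.14, was 0.05 to 0.15 with 1 library left out, the lowest without control 2 and 0.07 without siArid3a 3. Non-overlap held for 2 genes under RLE and library-size scaling and for 3 under upper-quartile scaling, Yap1 being the third. Lists with 0 calls gained Mob1b, Vgll3 and Gadd45a under DESeq2 (1 in each of 3 lists). Without a filter the kinase, partner and CCN lists gained 1 each and the target list 3 (Ccn2, F3, Gadd45a). Trend removal gave 1 kinase, 2 binding protein, 2 target and 1 CCN call, the depth block 1 binding protein and 1 target call, and leaving out 1 library 0 to 1 in the kinase and target lists. The cause of these changes was not tested.

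Values near 0 changed sign. Axl was 0.0013 with RLE scaling and with DESeq2, 0.04 with the depth block, 0.07 with the trend removed, and −0.04 to 0.05 with 1 library left out (0.05, 0.03 and 0.01 without control 3, siArid3a 1 and siArid3a 3). Amotl1 was −0.0034 with upper-quartile scaling, −0.01 with library size only, and −0.04 to 0.08 with 1 library left out (−0.0008 without control 1). Gm49361 was −0.32 to 0.45 with 1 library left out, the lowest without siArid3a 2. Arid3a was 0.07 with the depth block, 0.05 with the trend removed and −0.13 to 0.08 with 1 library left out. Log2 differences of the Yap1 to Wwtr1, Ccn1 to Ccn2 and Amotl1 to Amotl2 ratios stayed below 0 without any 1 library (−0.17 to −0.05, −0.18 to −0.02 and −0.16 to −0.09).

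Same-numbered control and siArid3a libraries did not deviate together (correlations of 0.0296, −0.179 and −0.0848), and other pairs had −0.063 to 0.146. With 3 libraries per group these values cannot tell whether the numbers pair the libraries. A replicate block called 0 genes and gave Ccn2 a log2 fold change of 0.31 (adjusted p = 0.415). Lats2 and Gm49361, with 34 and 70 reads in all, were measured too thinly to compare, and the cause of their low counts was not tested.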

Other observations

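The serum response factor pathway shares target genes and stimuli with YAP and TAZ in muscle cells, and its 4 listed factors all had log2 fold changes above 0, with a median of 0.22 and 0 called by edgeR. The abundant ones were Mrtfa and Srf: Mrtfa, the actin-sensing coactivator gene, averaged 74.8 ± 12 CPM in controls and 80.6 ± 5.9 CPM in siArid3a-labelled libraries, and Srf had 67.4 ± 7.24 and 68.8 ± 3.35 CPM (SD, n = 3). In both the difference between groups was smaller than the SD of the controls. Of the exonic bases of Srf, 0% lie outside other genes in GENCODE M21, so its count is uncertain. Mrtfb and Myocd, with 228 and 146 reads over the 6 libraries, were low, and 7.73% of the exonic bases of Mrtfb lie outside other genes. Their log2 fold changes were 0.33 (SE 0.30) and 0.55 (SE 0.39), against 0.11 (SE 0.11) for Mrtfa and 0.03 (SE 0.09) for Srf. The median of the list thus leans on its low-count genes. Among smooth muscle markers the gamma actin gene Actg2, picked out after its value was seen, had 120.2 ± 4.23 and 161.8 ± 38.9 CPM (log2 fold change 0.43, SE 0.12, edgeR adjusted p = 0.149), and its groups did not overlap.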
